A study of Mus musculus with 12 samples.

Results

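The genes of the epidermal cornified envelope were read in mouse ear skin that was left untreated or sampled 4 h after a cream with imiquimod (IMQ). Members were chosen by gene name on the array: every name that starts with Lce or Sprr, and Flg, Flg2, Hrnr, Rptn, Tchh, Tchhl1, Crnn, Crct1, Lor and Ivl. The names matched 45 genes on 53 probes, and 43 genes on 51 probes had a signal well above background on at least 2 of 12 arrays. These 43 members stood among 24261 genes tested. No probe carries the name Flg, and the probes of Sprr2a1 and Sprr3 were well above background on 0 arrays. The members fall into 14 Lce1 genes, 6 Lce3 genes, Lce6a, 10 Sprr2 genes, 2 Sprr1 genes, Sprr4, Lor, Ivl, Crct1 and 6 S100-fused type genes (Flg2, Hrnr, Rptn, Crnn, Tchh and Tchhl1).

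RNA of whole ear skin was pooled from 6 to 8 mice for each array and hybridized to single-colour 60-mer arrays. The mice were C57BL/6J wild type (WT), Tlr7-/-, Tlr9-/-, Tlr7-/-Tlr9-/- or Card14-/-, and no age is stated for them. Treated ears received 62.5 mg of a cream with 5% IMQ, a ligand of the receptor TLR7. The untreated groups are labelled as having no treatment, so no group received cream without IMQ. Each genotype had 1 untreated array. After IMQ, WT, Tlr7-/- and Tlr9-/- had 1 array each, and Tlr7-/-Tlr9-/- and Card14-/- had 2 repeat arrays each. Nothing says that the repeat arrays held separate pools. In single genotypes and group contrasts, p-values measure the spread between repeat arrays, which may thus be technical. In the average response and the Tlr7 comparison, p-values measure the spread of the response between genotypes.

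The cornified envelope is the cross-linked protein shell that replaces the plasma membrane of keratinocytes as they become corneocytes, the dead cells of the skin surface. Transglutaminases join its building blocks: loricrin and involucrin, the small proline-rich (SPRR) proteins, the late cornified envelope (LCE) proteins, and the large S100-fused proteins of the filaggrin type that bind keratin filaments. Most of these genes lie side by side in the epidermal differentiation complex, and several of them, among them the SPRR2 and LCE3 genes, are known as genes of wounded and psoriatic epidermis.

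All 43 members lay on mouse chromosome 3. On the build of the files, mm9, their probes ran from Lor at chr3:91884206-91884265 to Tchhl1 at chr3:93275828-93275887, which spans 1392 kb. All values below are log2 intensities after quantile normalization unless stated otherwise. Compared between genes they are rough, since each probe has its own brightness. The arrays had 60.1% to 65.7% of spots well above background and 0 saturated spots. Untreated arrays were brighter, with a 75th percentile signal of 1070 to 1236, against 527 to 779 after IMQ. Tlr7-/-Tlr9-/- and Card14-/- were hybridized on slide 1 when untreated and on slide 2 when treated, so slide and treatment cannot be told apart in their responses. All other arrays were on slide 1. The labelled genotypes were checked on their genes: Tlr7 read 4.02 to 5.85 on the 5 Tlr7-deficient arrays and 7.36 to 8.12 on the others, and Card14 read 9.63 to 9.89 on the Card14-/- arrays and 10.83 to 11.65 on the others. Tlr9 read 10.95 to 11.39 on all 12 arrays, so its probe did not mark the Tlr9-deficient ones. Keratins of the epidermis were bright on every array, with Krt14 at 18.17 to 18.32 and Krt10 at 17.88 to 18.17.

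The heat map of all members shows where they moved. In the average over the 5 genotypes, 5 members fell and 2 rose at an adjusted p under 0.05 in limma, where 26.3% of all genes were called (15.9% fell and 10.4% rose). The members' median difference was 0.00, and that of all genes -0.08. The falls were Sprr4, Rptn, Sprr1a, Hrnr and Flg2. The rises were Lce3c and Lce1g. The count depended on the scaling: with each array scaled to its 75th percentile, 10 members rose and 3 fell, with the bright loricrin gene and 7 Lce1 genes among the rises (values below). All 7 IMQ arrays lay below all 5 untreated arrays in 5 of 43 members, the same 5 that fell, and in 13.4% of all genes, so the members' share was near the background. No member had all 7 IMQ arrays above all 5 untreated ones, an order that 8.48% of all genes had. In whole skin, fewer cells of a type and less RNA per cell cannot be told apart.

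**Figure D1:**
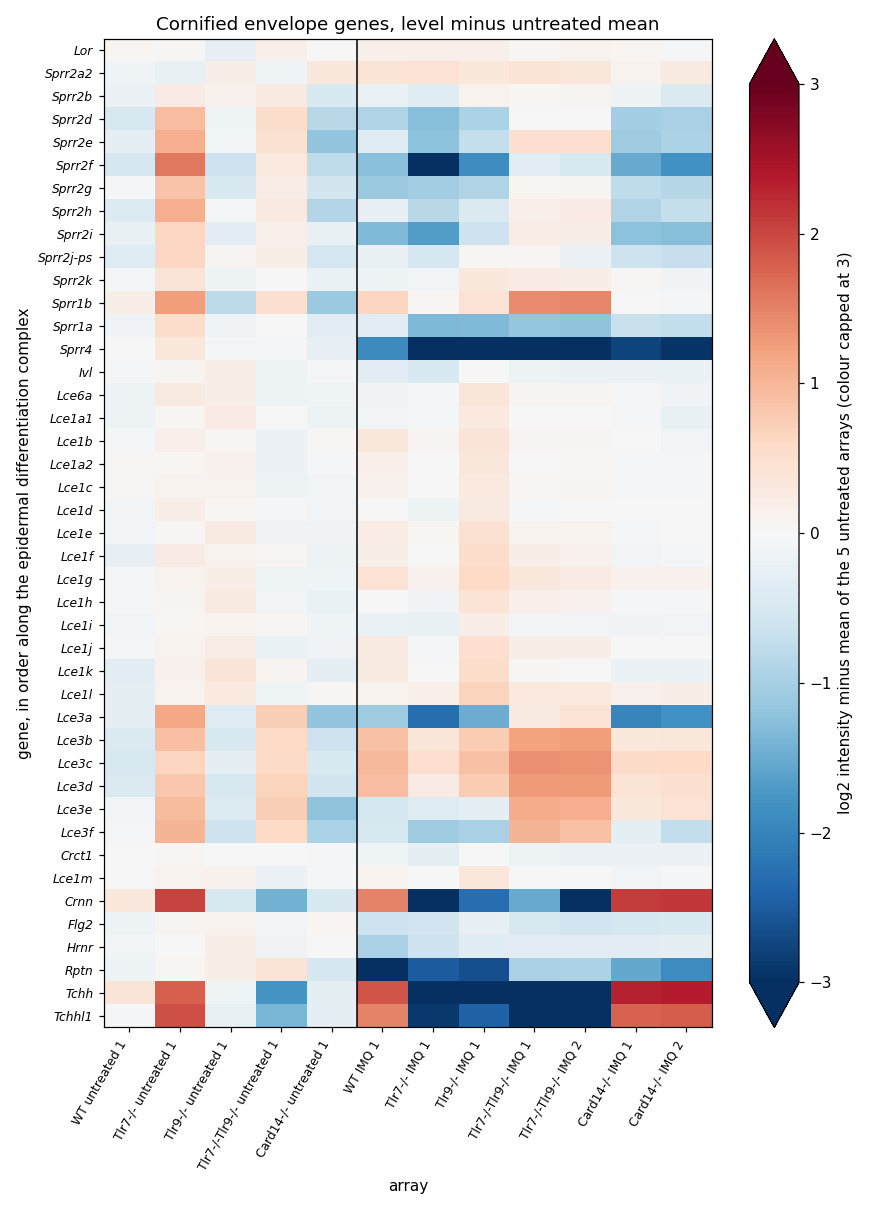
Log2 intensity of the 43 members (rows, in order along the complex) on the 12 arrays (columns), minus the mean of the 5 untreated arrays, with colours capped at 3. The Lce1 rows are pale throughout, Sprr4 and Rptn are blue on every IMQ array, and Tchh, Tchhl1 and Crnn are red in WT and Card14-/- after IMQ and blue in the other genotypes.

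Sprr4, a small proline-rich protein, had the largest average fall of the members. Untreated skin read 9.89 in WT, 10.23 in Tlr7-/-, 9.83 in Tlr9-/-, 9.84 in Tlr7-/-Tlr9-/- and 9.65 in Card14-/-. After IMQ it read 7.98 in WT, 5.48 in Tlr7-/-, 5.93 in Tlr9-/-, 5.49 and 5.47 in Tlr7-/-Tlr9-/-, and 7.11 and 6.94 in Card14-/-. The untreated arrays sat within 0.57 of each other, while the treated ones spread over 2.50, with WT and Card14-/- highest. The average difference was -3.51 ± 0.45 (SE, adjusted p = 0.0096), an 11.4-fold fall. The single responses were -1.91 in WT, -2.63 in Card14-/-, -3.91 in Tlr9-/-, -4.36 in Tlr7-/-Tlr9-/- and -4.74 in Tlr7-/-. Its fall was called with every left-out genotype, with values of -3.20 to -3.91, and in the 3 genotypes whose arrays share a slide (-3.52).

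Rptn, repetin, an S100-fused protein of the envelope, read 6.99, 7.20, 7.32, 7.56 and 6.65 in untreated WT, Tlr7-/-, Tlr9-/-, Tlr7-/-Tlr9-/- and Card14-/- skin. The IMQ arrays read 4.08 in WT (not well above background), 4.64 in Tlr7-/-, 4.52 in Tlr9-/-, 6.16 and 6.19 in Tlr7-/-Tlr9-/-, and 5.61 and 5.27 in Card14-/-. Every IMQ array was below every untreated one. The average difference was -2.17 ± 0.31 (SE, adjusted p = 0.0108), or at least 4.43-fold lower when the WT IMQ array is set to the lowest signal well above background. It was smaller with the normexp background correction (-1.08) and in the deposited table (-1.49), and called in both. In WT alone the fall was at least 6.85-fold.

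Sprr1a, an early marker of stressed keratinocytes, read 13.42, 14.04, 13.42, 13.54 and 13.20 in the untreated genotypes in the same order. 4 h after IMQ the values were 13.19 in WT, 12.17 in Tlr7-/-, 12.21 in Tlr9-/-, 12.35 and 12.31 in Tlr7-/-Tlr9-/-, and 12.85 and 12.78 in Card14-/-. WT and Card14-/- stayed closest to their untreated level, with responses of -0.23 and -0.38. The average difference was -0.98 ± 0.26 (SE, adjusted p = 0.0411). The call was lost without the Tlr7-/- pair (-0.76, adjusted p = 0.0853), the Tlr9-/- pair (-0.92, adjusted p = 0.126) or the Tlr7-/-Tlr9-/- pair (-0.92, adjusted p = 0.0989).

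The filaggrin relatives Hrnr (hornerin) and Flg2 (filaggrin 2) were bright and fell by little. Hrnr read 15.56 to 15.85 on the untreated arrays, and after IMQ 14.70 in WT, 15.06 in Tlr7-/-, 15.32 in Tlr9-/-, 15.32 and 15.35 in Tlr7-/-Tlr9-/-, and 15.36 and 15.40 in Card14-/-. The largest single response was that of WT, at -0.90. Flg2 read 16.59 to 16.86 untreated, and after IMQ 16.13 in WT, 16.18 in Tlr7-/-, 16.52 in Tlr9-/-, 16.27 and 16.18 in Tlr7-/-Tlr9-/-, and 16.22 and 16.29 in Card14-/-. The average differences were -0.51 ± 0.12 for Hrnr (SE, adjusted p = 0.0280) and -0.49 ± 0.07 for Flg2 (SE, adjusted p = 0.0115). With scaling to the 75th percentile they were -0.30 and -0.19 and not called (adjusted p = 0.192 and 0.177). The call of Hrnr was also lost without the WT, Tlr7-/- or Tlr9-/- pair, with adjusted p of 0.0567, 0.0840 and 0.0948. The second probe of Flg2 averaged -0.16 and was 0.12 higher after IMQ in Tlr9-/-.

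**Figure D2:**
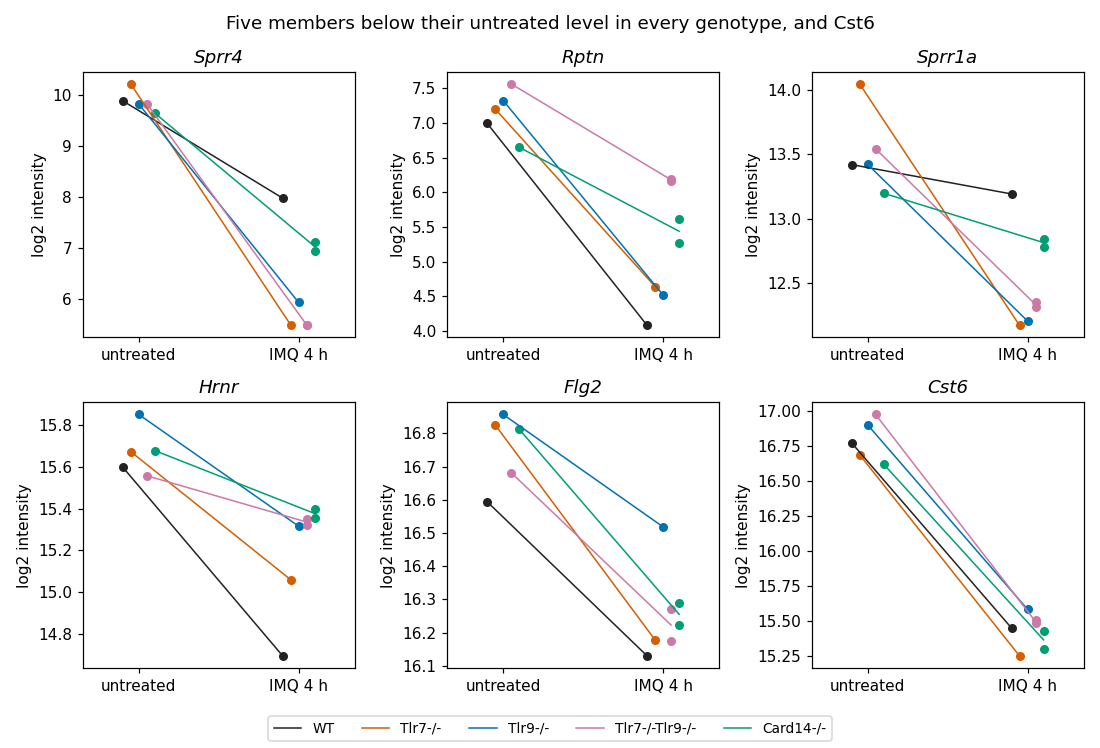
Log2 intensity of Sprr4, Rptn, Sprr1a, Hrnr and Flg2, and of the cystatin Cst6, in untreated skin and 4 h after IMQ, 1 point per array and 1 line per genotype (to the mean where there are 2 arrays). The lines of Sprr4 fan out, from -1.91 in WT to -4.74 in Tlr7-/-, and those of Cst6 run nearly parallel.

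Lor encodes loricrin, the main protein of the envelope. It was among the brightest genes of each array, ranking between 2 and 20 of 24261. Lor read 17.94 to 18.32 untreated and 18.15 to 18.32 after IMQ, with an average of 0.11. Quantile normalization leaves the brightest genes little room to move. With scaling to the 75th percentile Lor was called as higher by 0.75, and the median of the 500 brightest genes of all went from -0.07 to 0.27. Whether loricrin changed thus depended on the scaling.

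The 14 Lce1 genes, the late cornified envelope genes of intact epidermis, were almost level. Their average differences ran from -0.08 (Lce1i) to 0.31 (Lce1g), with a median of 0.11. Lce1g read 14.72, 14.86, 14.96, 14.62 and 14.63 in untreated WT, Tlr7-/-, Tlr9-/-, Tlr7-/-Tlr9-/- and Card14-/-. After treatment its values were 15.19 in WT, 14.89 in Tlr7-/-, 15.35 in Tlr9-/-, 15.10 and 15.00 in Tlr7-/-Tlr9-/-, and 14.88 in both Card14-/- arrays. Its call (0.31 ± 0.09 SE, adjusted p = 0.0479) was lost without any 1 of the 5 pairs, with adjusted p of 0.0516 to 0.149. The median of the 14 was 0.39 with scaling to the 75th percentile, where Lce1a1, Lce1a2, Lce1b, Lce1c, Lce1e, Lce1g and Lce1m were called as higher. No Lce1 gene passed the threshold in any single genotype, where a difference of at least 1 was also required. The probes of Lce1d and Lce1i share 47 of 60 bases, so each may read some signal of the other.

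Lce6a, Crct1 and Ivl were not called on average. Ivl, involucrin, the early scaffold protein of the envelope, read 10.01 to 10.37 untreated and 9.71 to 10.17 after IMQ, with an average of -0.23 that was not called. Crct1 (cysteine-rich C-terminal 1) averaged -0.15 on its bright probe, and -0.70 on a dim second probe. Lce6a averaged 0.04 on its brightest probe. Its 2 dimmer probes both averaged 0.32, with responses of 0.79 and 0.89 in WT and 0.80 and 0.75 in Card14-/-. In the same order they had 0.28 and 0.23 in Tlr9-/-, 0.17 and 0.20 in Tlr7-/-Tlr9-/-, and -0.42 and -0.45 in Tlr7-/-.

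The Lce3 genes, the late cornified envelope genes that are induced in damaged epidermis, did not move as 1 block. Lce3b, Lce3c and Lce3d rose in WT and Tlr9-/-, and Lce3c and Lce3e in Card14-/-. Lce3a fell in Tlr9-/- (-1.10), and Lce3a, Lce3e and Lce3f fell in Tlr7-/-. The averages of Lce3a and Lce3f, -1.28 and -0.41, were not called. Lce3c read 11.73, 12.85, 11.91, 12.78 and 11.76 in untreated WT, Tlr7-/-, Tlr9-/-, Tlr7-/-Tlr9-/- and Card14-/-. After IMQ it read 13.17 in WT, 12.72 in Tlr7-/-, 13.09 in Tlr9-/-, 13.57 and 13.56 in Tlr7-/-Tlr9-/-, and 12.77 and 12.81 in Card14-/-. Both untreated Tlr7-deficient arrays already lay near the treated level of the others. The average was 0.86 ± 0.23 (SE, adjusted p = 0.0435), with 1.44 in WT, 1.18 in Tlr9-/-, 1.03 in Card14-/-, 0.78 in Tlr7-/-Tlr9-/- and -0.13 in Tlr7-/-. That call was lost without the WT (adjusted p = 0.111), Tlr9-/- (0.134), Tlr7-/-Tlr9-/- (0.0906) or Card14-/- pair (0.0952). In the group contrasts Lce3b rose in WT (1.32) and Tlr9-/- (1.20) and Lce3d in the same genotypes (1.36 and 1.23), and their responses in Card14-/- were 0.95 and 0.99, below the size limit of 1. In Tlr7-/-Tlr9-/- the responses of Lce3b and Lce3d were both 0.62. The probes of Lce3b and Lce3c share 54 of 60 bases, so their values are not independent.

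**Figure D3:**
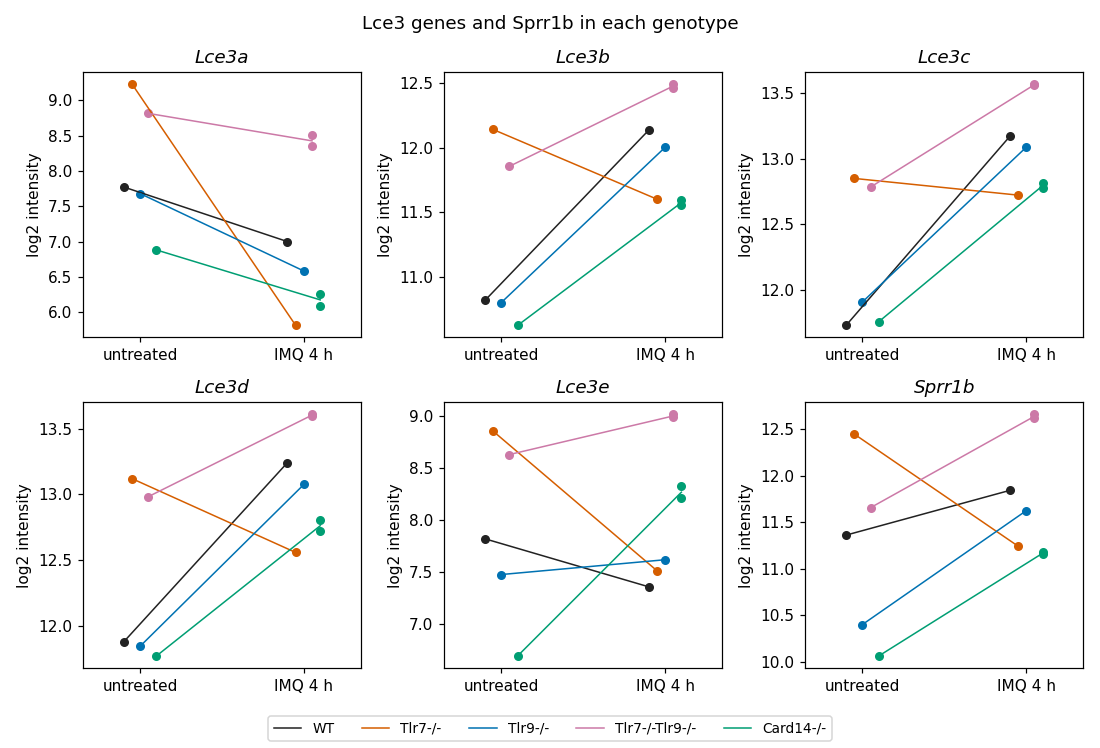
Log2 intensity of 5 Lce3 genes and Sprr1b in untreated skin and 4 h after IMQ, 1 point per array and 1 line per genotype. The Tlr7-/- and Tlr7-/-Tlr9-/- points are the 2 highest of the untreated points in each panel, and the lines of Lce3b, Lce3c and Lce3d rise from the other 3 genotypes towards them.

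The untreated arrays themselves set these genes apart. In 18 of 43 members both untreated Tlr7-deficient arrays (Tlr7-/- and Tlr7-/-Tlr9-/-) lay above the other 3 untreated arrays, beside 7.48% of all genes. The reverse order was found in 1 member, Sprr2a2, beside 7.19% of all genes, and only on its brightest probe, since its other 2 probes had the forward order. The 18 were all 6 Lce3 genes, 9 of 10 Sprr2 genes, Sprr1a, Sprr1b and Crct1, and 0 of 14 Lce1 genes. This order was looked for after the values had been seen, each genotype had a single untreated pool, and no test was made. The mean of the 2 arrays exceeded that of the other 3 by 1.02 in Lce3c, 1.25 in Lce3b, 1.58 in Lce3a, 1.44 in Sprr1b and 1.57 in Sprr2f. It did so by less in other members, with 0.45 in Sprr1a, 0.43 in Sprr2b, 0.32 in Sprr2k and only 0.05 in Crct1. The count was 17 or 18 under each of the 6 other settings of normalization, background, filter and probe choice. All 5 untreated arrays were on the same slide.

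The Sprr2 genes encode short proline-rich proteins that bridge other envelope proteins. Their promoters are shown because 7 of the 9 with a sequence hold the AP-1 motif TGANTCA (searched on both strands, which read alike) between -198 and -182 from the start. The windows are 40 bases long, from RefSeq on GRCm38.p6, given 5′ to 3′ on the gene's strand with the motif in capitals. They lie at chr3:92316495-92316534 (Sprr2b), chr3:92338930-92338969 (Sprr2d), chr3:92351933-92351972 (Sprr2e), chr3:92364977-92365016 (Sprr2f), chr3:92385475-92385514 (Sprr2h), chr3:92407781-92407820 (Sprr2i) and chr3:92432372-92432411 (Sprr2k), all on the plus strand.
Sprr2b: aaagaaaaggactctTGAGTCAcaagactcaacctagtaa
Sprr2d: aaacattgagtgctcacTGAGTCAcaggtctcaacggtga
Sprr2e: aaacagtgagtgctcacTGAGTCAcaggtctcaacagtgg
Sprr2f: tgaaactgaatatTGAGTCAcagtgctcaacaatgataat
Sprr2h: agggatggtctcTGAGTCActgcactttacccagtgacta
Sprr2i: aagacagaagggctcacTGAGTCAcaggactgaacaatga
Sprr2k: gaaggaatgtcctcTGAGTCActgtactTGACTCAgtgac
The windows of Sprr2d and Sprr2e differ by 3 of 40 bases, and Sprr2k holds the motif at 2 places. Promoter windows (250 bases before to 50 after the start) were found for 41 of the 45 named genes. The motif was in 15 of these 41 (36.6%), beside 7.81% of 32851 windows of all genes, and in 0 of 20 Lce windows. The Sprr2 genes make up 7 of these 15, and their 40-base windows match each other at 52.5% to 92.5%. The member windows are thus not independent, and the 2 shares were not tested against each other. The TATA-box letters TATAAA, on either strand, were in 46.3% of member windows and 13.6% of all.

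In the average response 0 of the 10 Sprr2 members were called by limma, and 5 had an unadjusted p under 0.05 (Sprr2a2 higher, the others lower), beside 10271 of 24261 genes. The median over the 10 was -0.49. In Tlr7-/- skin 7 of 10 fell, beside 3.66% of all genes, and none of these calls remained with either Card14-/- IMQ array left out. They were Sprr2d (-2.21), Sprr2e (-2.31), Sprr2f, Sprr2g (-1.90), Sprr2h (-1.94), Sprr2i (-2.29) and Sprr2j-ps (-1.12). Sprr2f, a dim gene, read 6.62, 8.71, 6.50, 7.42 and 6.36 in untreated WT, Tlr7-/-, Tlr9-/-, Tlr7-/-Tlr9-/- and Card14-/-. The IMQ arrays read 5.88, 3.96 (not well above background), 5.24, 6.77 and 6.64, and 5.61 and 5.32 in the same order. Untreated Tlr7-/- was the highest and treated Tlr7-/- the lowest of the 12, and the fall there was at least 23.8-fold. Sprr2i fell in WT (-1.12) and Card14-/- (-1.04) too, Sprr2g in WT (-1.05), and Sprr2f in Tlr9-/- (-1.27). Sprr2b and Sprr2k, which hold the motif, had responses of -0.62 to 0.47 over the 5 genotypes.

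Sprr2a2 shows how far the choice of probe matters. Its brightest probe read 16.45 to 16.99 untreated and 16.79 to 17.10 after IMQ. A second probe of it, well above background on all 12 arrays, read 12.11, 14.37, 14.21, 14.89 and 11.77 in untreated WT, Tlr7-/-, Tlr9-/-, Tlr7-/-Tlr9-/- and Card14-/-. After IMQ that probe read 12.29, 11.93, 13.60, 13.52 and 13.43, and 11.92 and 11.97 in the same order. On that probe the WT and Card14-/- arrays, treated or not, lay between 11.77 and 12.29, as did treated Tlr7-/-, while untreated Tlr7-/-, Tlr9-/- and Tlr7-/-Tlr9-/- lay between 14.21 and 14.89. Its responses were -2.44 in Tlr7-/-, -1.42 in Tlr7-/-Tlr9-/- and -0.60 in Tlr9-/-. The responses of the brightest probe lay between -0.12 and 0.66.

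Sprr1b, like Sprr1a a gene of stressed epidermis, read 11.36, 12.44, 10.40, 11.66 and 10.07 in the untreated genotypes. 4 h after IMQ the values were 11.84 in WT, 11.24 in Tlr7-/-, 11.62 in Tlr9-/-, 12.62 and 12.65 in Tlr7-/-Tlr9-/-, and 11.18 and 11.15 in Card14-/-. It rose in Tlr9-/- (1.22) and Card14-/- (1.10) and fell in Tlr7-/- (-1.20), with values of 0.48 in WT and 0.98 in Tlr7-/-Tlr9-/-. Its second probe had responses of the same sign except in WT (-0.49). They were 0.70 in Tlr9-/- and 0.59 in Card14-/-, below the size limit of 1, 0.52 in Tlr7-/-Tlr9-/- and -1.83 in Tlr7-/-. The size of both called rises thus depended on the probe. The promoters of both Sprr1 genes and of Rptn hold the AP-1 motif, and that of Sprr4 does not. They are shown for comparison with the motif in capitals: Sprr1a at chr3:92485977-92486036 (minus strand), Sprr1b at chr3:92438870-92438909 (minus strand), Rptn at chr3:93393584-93393623 (plus strand) and the 150 bases before the start of Sprr4 at chr3:92500494-92500643 (minus strand).
Sprr1a: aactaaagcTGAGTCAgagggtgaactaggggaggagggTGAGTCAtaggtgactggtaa
Sprr1b: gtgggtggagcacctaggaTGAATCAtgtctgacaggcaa
Rptn: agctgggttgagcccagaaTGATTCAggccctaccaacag
Sprr4: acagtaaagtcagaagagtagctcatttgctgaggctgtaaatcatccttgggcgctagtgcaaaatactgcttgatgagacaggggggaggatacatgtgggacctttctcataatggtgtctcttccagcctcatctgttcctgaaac
Of the members whose promoter window holds the motif, Rptn, Sprr1a and Flg2 fell on average and the others were not called. Sprr4 and Hrnr, with no match in theirs, fell as well, and of all genes 15.9% fell. A link between the motif and the responses was not tested.

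The Lce3 promoters hold no AP-1 motif in these windows. The last 100 bases before the start are shown for 4 neighbouring genes with unlike responses, with the longest run that all 4 share in capitals. They lie on the plus strand at chr3:92932879-92932978 (Lce3b), chr3:92944386-92944485 (Lce3c), chr3:92957290-92957389 (Lce3d) and chr3:92966961-92967060 (Lce3e) of GRCm38.p6.
Lce3b: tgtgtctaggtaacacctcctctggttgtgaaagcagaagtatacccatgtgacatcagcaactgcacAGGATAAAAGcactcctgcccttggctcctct
Lce3c: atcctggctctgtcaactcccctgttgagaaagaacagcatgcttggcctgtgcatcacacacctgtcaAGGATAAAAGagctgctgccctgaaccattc
Lce3d: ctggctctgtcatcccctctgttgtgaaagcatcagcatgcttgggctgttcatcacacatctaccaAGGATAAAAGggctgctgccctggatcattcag
Lce3e: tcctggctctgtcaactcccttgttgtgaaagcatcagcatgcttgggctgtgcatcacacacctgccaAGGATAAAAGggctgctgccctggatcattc
The shared run of 10 bases starts 31 to 33 bases before the start. The window of Lce3e matched those of Lce3c and Lce3d at 90%, and that of Lce3b matched the others at 63% to 66%. In the average response Lce3e read 0.06, Lce3b 0.71, Lce3c 0.86 and Lce3d 0.73, and only Lce3c was called. In Card14-/- the order differed, with Lce3e at 1.57, Lce3b at 0.95, Lce3c at 1.03 and Lce3d at 0.99. A link between these windows and the responses was not tested.

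In the single genotypes, called at an adjusted p under 0.05 and a difference of at least 1 in limma, the members' calls differed most in Tlr7-/-. There 17 members fell and 0 rose, where 7.57% of all genes were called (3.66% fell and 3.92% rose), and the members' median was -0.54 (all genes -0.06). The 17 were the 7 Sprr2 genes above, Sprr1a (-1.87), Sprr1b, Sprr4, Lce3a (-3.42), Lce3e (-1.34), Lce3f (-2.08), Rptn (-2.56), Crnn, Tchh and Tchhl1. A high untreated value is part of such a fall. The untreated Tlr7-/- array was the highest of the 5 untreated arrays in 16 of these 17, and in 418 of the 887 genes of all that fell in Tlr7-/-. Without that selection it was the highest in 26 of 43 members and 15.5% of all genes. The treated Tlr7-/- array was the lowest of the 7 treated arrays in 8 of the 17 and in 363 of the 887, which are similar shares. Lce3a read 9.23 in untreated Tlr7-/- and 5.82 after IMQ, the highest and the lowest of its 12 values. Tlr7-/- had 1 array per condition, so its calls rest on the spread between the repeat arrays of other genotypes. With either Card14-/- IMQ array left out, the 17 calls became 2 (Sprr4 and Tchh, both at an adjusted p of 0.0497).

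In WT skin 5 members rose and 4 fell, where 14.5% of all genes were called (7.74% rose and 6.73% fell). Rises were Tchhl1 (1.54), Tchh (1.51), Lce3c (1.44), Lce3d (1.36) and Lce3b (1.32), and falls were Rptn, Sprr4 (-1.91), Sprr2i (-1.12) and Sprr2g (-1.05). With scaling to the 75th percentile 6 rose and 2 fell. In Tlr9-/- skin 4 members rose and 7 fell, where 9.09% of all genes were called (5.15% rose and 3.94% fell). The rises were Lce3d (1.23), Sprr1b (1.22), Lce3b (1.20) and Lce3c (1.18), and the 5 largest falls were Sprr4 (-3.91), Tchh (-2.98), Rptn (-2.81), Tchhl1 (-2.20) and Sprr2f (-1.27). With either Card14-/- IMQ array left out, 0 members were called in Tlr9-/-.

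In Tlr7-/-Tlr9-/- skin 5 members fell and 0 rose, where 6.15% of all genes were called (2.24% fell and 3.92% rose). The falls were Sprr4 (-4.36), Tchh (-2.67), Tchhl1 (-1.78), Rptn (-1.38) and Sprr1a (-1.21), and with scaling to the 75th percentile 1 member rose as well. Without any 1 of the 4 repeat arrays, 0 members were called there. In Card14-/- skin 5 members rose and 3 fell, where 4.39% of all genes were called (3.06% rose and 1.34% fell). Rises were Tchh (2.61), Tchhl1 (2.09), Lce3e (1.57), Sprr1b (1.10) and Lce3c (1.03), and falls were Sprr4 (-2.63), Rptn (-1.21) and Sprr2i (-1.04). The 8 calls became 3 without either Tlr7-/-Tlr9-/- IMQ array, and 0 without either Card14-/- IMQ array.

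**Figure D4:**
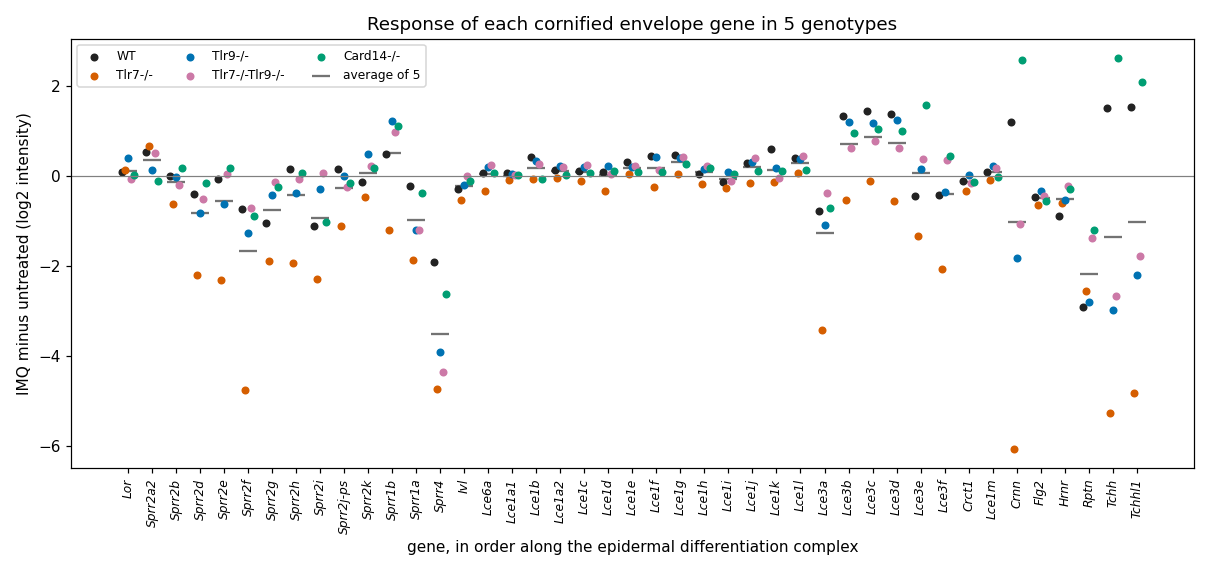
Response (IMQ minus untreated, log2 intensity) of each of the 43 members in the 5 genotypes (coloured points) and on average (bars), in gene order along the complex. The points of the Lce1 genes stay between -0.34 and 0.59, those of Tlr7-/- are the lowest for most Sprr2 and Lce3 genes, and those of Crnn, Tchh and Tchhl1 span from -6.06 to 2.61.

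The series has IMQ, a TLR7 ligand, in mice with and without that receptor. The response of the 2 Tlr7-deficient genotypes was compared with that of the 3 others in a limma fit over the 5 differences. Of all genes 0% were called, so 0 members were, with 765 genes and 4 members at an unadjusted p under 0.05. The 4 were Lce3b (-1.12), Lce3c (-0.89), Lce3d (-1.16) and Sprr4 (-1.73), with unadjusted p of 0.0343, 0.0407, 0.0312 and 0.0386. The members' median difference was -0.30, beside 0.04 for all genes. For the Lce3 genes this difference contains the untreated order above. The 8 interferon genes used as a treatment check rose in WT (8 of 8), Card14-/- (8 of 8) and Tlr9-/- (5 of 8). Of all genes, 7.74%, 3.06% and 5.15% rose there. In treated Card14-/- skin 8 of 8 were higher than in treated Tlr7-/-Tlr9-/- skin, beside 1.2% of all genes. Their summed level on the log2 scale went from 12.51 to 14.92 in WT. It was 12.34 untreated and 12.30 after IMQ in Tlr7-/-, and 12.22 untreated and 12.11 and 12.07 after IMQ in Tlr7-/-Tlr9-/-. The Tlr7 fit called 0 of these 8 genes too. Its 0 calls among the members thus cannot show that a response is the same with and without Tlr7.

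The Card14-/- response minus the WT response was called in 3 members, all higher in Card14-/-, where 10.5% of all genes were called (5.14% higher and 5.36% lower). Lce3e read 7.82 in untreated WT and 7.36 after IMQ, and 6.70 in untreated Card14-/- and 8.21 and 8.32 after IMQ. The difference of the responses was 2.03 ± 0.10 (SE, adjusted p = 0.0136). Untreated Card14-/- was the lowest of the 5 untreated arrays for this gene. Rptn fell by 2.91 in WT and by 1.21 in Card14-/-, a difference of 1.70 ± 0.26 (SE, adjusted p = 0.0300). Its WT IMQ array was not well above background, and with that array at the lowest signal well above background the difference was at least 1.57. It was 1.19 with scaling to the 75th percentile. With normexp (0.57) and in the deposited table (0.85) it missed the size limit of 1. For all 3 members the treated Card14-/- arrays were on slide 2 and the other arrays compared on slide 1. Slide and genotype thus cannot be told apart in this difference. Tchh differed by 1.10 ± 0.08 (SE, adjusted p = 0.0143). With any 1 of the 4 repeat arrays left out, 0 members were called.

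Treated Card14-/- and treated Tlr7-/-Tlr9-/- skin had 2 arrays each on 1 slide. Here 3 members were higher and 7 lower in Card14-/-, where 1.44% of all genes were called (1.2% higher and 0.235% lower). Higher were Tchh (6.78), Tchhl1 (4.94) and Sprr4 (1.54). Lower were Lce3a (-2.25), Sprr2e (-1.52), Sprr1b (-1.47), Sprr2i (-1.46), Sprr2f (-1.24), Sprr2d (-1.01) and Sprr2h (-1.01). Lce3a read 6.09 and 6.26 in Card14-/- and 8.35 and 8.50 in Tlr7-/-Tlr9-/-, and Sprr1b 11.18 and 11.15 against 12.62 and 12.65. Sprr2e read 6.48 and 6.59 against 8.06 in both arrays. The untreated arrays of the same genotypes also differed: Lce3a read 6.88 in Card14-/- and 8.82 in Tlr7-/-Tlr9-/-, and Sprr1b 10.07 and 11.66. The 10 calls became 3 without either Tlr7-/-Tlr9-/- IMQ array and 0 without either Card14-/- IMQ array.

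Tchh (trichohyalin), Tchhl1 and Crnn (cornulin) had the 3 largest falls of the members in Tlr7-/- skin, and larger values after IMQ than before in WT and Card14-/-. Trichohyalin is the structural protein of the inner root sheath, the cell layers that guide the growing hair, and is also found in some epithelia of the tongue and skin. Tchh read 13.06, 14.49, 12.55, 10.91 and 12.41 in untreated WT, Tlr7-/-, Tlr9-/-, Tlr7-/-Tlr9-/- and Card14-/-. After treatment its values were 14.57 in WT, 9.23 in Tlr7-/-, 9.57 in Tlr9-/-, 8.25 and 8.22 in Tlr7-/-Tlr9-/-, and 14.99 and 15.04 in Card14-/-. Thus it rose in WT (1.51 ± 0.06 SE, adjusted p = 0.00409) and Card14-/- (2.61 ± 0.05 SE, adjusted p = 0.00419). It fell in Tlr7-/- (-5.26), Tlr9-/- (-2.98) and Tlr7-/-Tlr9-/- (-2.67). The untreated arrays alone spanned 3.58, which is larger than the response of each genotype other than Tlr7-/-.

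Tchhl1, the neighbour of Tchh, read 10.90, 12.89, 10.74, 9.59 and 10.66 untreated. After IMQ it read 12.44 in WT, 8.05 in Tlr7-/-, 8.54 in Tlr9-/-, 7.76 and 7.86 in Tlr7-/-Tlr9-/-, and 12.73 and 12.77 in Card14-/-. The order of its arrays followed that of Tchh in broad terms, with WT and Card14-/- highest after IMQ. Crnn, an S100-fused protein of squamous epithelia, read 7.35, 9.07, 6.57, 5.63 and 6.58 untreated. The IMQ arrays read 8.54 in WT, 3.02 in Tlr7-/- (not well above background), 4.75 in Tlr9-/-, 5.52 and 3.62 in Tlr7-/-Tlr9-/- (the second not well above background), and 9.15 and 9.16 in Card14-/-. The repeat arrays of Tlr7-/-Tlr9-/- differed by more than in any other member, and Crnn was called only in Tlr7-/-, as at least 30.7-fold lower.

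Markers of the hair follicle moved with these genes. Of 7 measured inner root sheath keratins, 3 rose in WT and 5 in Card14-/-, beside 7.74% and 3.06% of all genes. The falls were 6 in Tlr7-/-, 5 in Tlr9-/- and 6 in Tlr7-/-Tlr9-/-, beside 3.66%, 3.94% and 2.24% of all genes. The summed level of the 7 keratins on the log2 scale was 12.87 to 16.30 on the untreated arrays, highest in Tlr7-/- and lowest in Tlr7-/-Tlr9-/-. After IMQ it was 15.98 in WT, 16.19 and 16.18 in Card14-/-, 11.40 in Tlr7-/-, 11.91 in Tlr9-/-, and 11.40 and 11.32 in Tlr7-/-Tlr9-/-. On those last 4 arrays Krt26 and Krt73 were not well above background, and on the last of them Krt25 and Krt71 also were not. Krt71, a keratin of the inner root sheath, had responses of 1.18 in WT and 1.63 in Card14-/-, and of -7.25 in Tlr7-/-, -4.80 in Tlr9-/- and -7.23 in Tlr7-/-Tlr9-/-, where 1 of the 2 IMQ arrays was not well above background. Padi3, the enzyme that modifies trichohyalin, had 1.37 in WT, 2.44 in Card14-/-, -6.21 in Tlr7-/- and -3.03 in Tlr9-/-, and was not well above background on either Tlr7-/-Tlr9-/- IMQ array. Of 12 hair shaft keratins 5 rose in WT (median 1.22) and 8 in Card14-/- (2.10), beside 7.74% and 3.06% of all genes. In Tlr7-/- 10 of them fell (median -4.44), in Tlr7-/-Tlr9-/- 7 (-1.68) and in Tlr9-/- 2 (-0.47), beside 3.66%, 2.24% and 3.94% of all genes. The summed level of interfollicular basal keratinocyte markers stayed within 18.87 to 19.16 over all 12 arrays. That sum is weighted to very bright keratins such as Krt14, which quantile normalization leaves little room to move. The part of the follicle markers in the values of Tchh, Tchhl1 and Crnn was not tested.

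**Figure D5:**
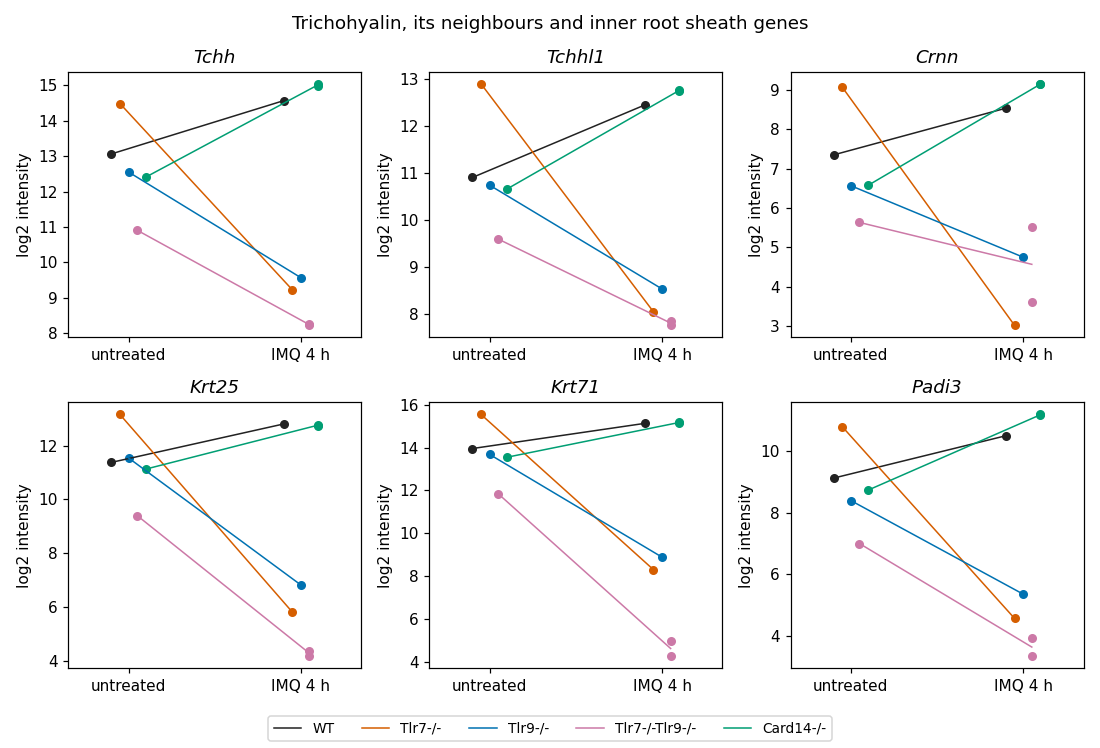
Log2 intensity of Tchh, Tchhl1 and Crnn, of the inner root sheath keratins Krt25 and Krt71, and of Padi3, in untreated skin and 4 h after IMQ, 1 point per array and 1 line per genotype. In all 6 panels the WT and Card14-/- lines go up, the other 3 go down, and untreated Tlr7-/- is the highest untreated point.

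The partners of the envelope proteins were read from lists. Of 22 measured cross-linking and scaffold partners, 2 rose and 6 fell on average, with a median of -0.12, beside 10.4% of all genes that rose, 15.9% that fell and a median of -0.08. Cst6, cystatin M/E, an inhibitor that restrains the cross-linking cascade, fell in each genotype, by 1.32 in WT, 1.44 in Tlr7-/-, 1.32 in Tlr9-/-, 1.48 in Tlr7-/-Tlr9-/- and 1.25 in Card14-/-, with an average of -1.36 (adjusted p = 0.00336). The plakin Ppl (periplakin, -0.54) and the desmosomal protein Dsp (desmoplakin, -0.52) fell too, while S100a10 (0.44) and Lelp1 (0.39) rose. The cross-linking enzyme Tgm1 averaged 0.36 and Tgm3 -0.12, neither of them called, and Tgm5 fell (-0.43).

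Of 23 filaggrin-processing and desquamation proteases and their inhibitors, 0 rose and 5 fell, with a median of -0.19. These counts, and those of the next lists, stand beside 10.4% of all genes that rose and 15.9% that fell. The kallikreins Klk10 (-1.85) and Klk12 (-1.52), proteases of the skin surface, and the inhibitor Spink5 (-0.54) fell most. Of 22 corneocyte lipid envelope genes 1 rose (Slc27a4, a fatty acid transporter, 0.55) and 3 fell, among them Degs2, a ceramide hydroxylase (-1.93), and Sptlc1 (-0.53). Of 13 S100 genes of the complex 1 rose (S100a10), with a median of 0.13. Of 9 stress keratins and hyperproliferation genes 2 fell, Krt6b (-2.09) and Krt6a (-0.75), and 0 rose.

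Of 9 AP-1 subunits, transcription factors whose motif was searched above, 8 rose on average, beside 10.4% of all genes, with a median of 0.96. The largest rises were Fosl1 (2.62), Fos (1.55) and Fosb (1.44), and Fosl1 rose in each genotype by 2.14 to 3.08. Of 29 transcription factors of keratinocyte differentiation 4 rose and 10 fell, beside 10.4% and 15.9% of all genes, with a median of -0.28. Notch1 (1.87), Ehf (1.08) and Hopx (0.44) rose most, and Pou2f3 (-0.69), Ahr (-0.65) and Grhl1 (-0.56) fell most.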

How the data were processed

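The spot intensity values of 12 single-colour arrays, per the file headers, come from version 10.7.3.1 of Agilent Feature Extraction (the submitters' processing notes give 10.5.1.1) and are background-subtracted within each array only. A log2 table that the authors deposited was made, per the series' design text, by background subtraction and a limma normalization called quartile. It served as an alternative, and its columns share a common maximum.

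Outlier-flagged probes (235 of 56605) were left out, log2 processed signals were quantile normalized with limma 3.58.1 in R 4.3.3 (data.table package, version 1.17.8; Python 3.11.15, numpy 2.4.6, pandas 2.3.3, matplotlib 3.10.9), and the 37125 probes with signal well above background on 2 or more arrays entered. Each gene was read on its brightest passing probe. Symbols of 32989 probes came from RefSeq by accession, and 23616 kept the file's name. The average response was fitted on 10 genotype and treatment means with genotype as a block (4 residual degrees of freedom), Tlr7 dependence on 5 differences (3), and the other comparisons on 12 arrays and 10 groups (2, from the repeat arrays). p-values are two-sided and Benjamini-Hochberg adjusted over 24261 genes. "At least N-fold" compares with the lowest signal well above background on each array (3.63 to 4.38). The number of arrays limits the precision.

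The members, lists and tests were chosen with earlier results of these data known. Any member may be named; called members of the average, the 5 largest rises and falls of other comparisons, and up to 3 rises and 3 falls per list are named. Genes named beyond this (Krt71, Padi3, Tgm1, Tgm3, the second probes) were chosen after their values were seen. Alternatives were scaling to the 75th percentile, normexp background correction, the deposited table, no filter or a filter on all arrays, the mean of a gene's probes, slide and replicate blocks, and leaving out arrays or pairs. Scripts were tested on simulated data.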

Additional observations from a re-analysis of the deposited data

Results flagged for a closer look

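The responses of 2 genotypes differed in several members. The Card14-/- response minus the WT response, a tested difference, was 2.03 in Lce3e, 1.70 in Rptn and 1.10 in Tchh. The treated Card14-/- arrays were on slide 2 and the other arrays compared on slide 1, so slide and genotype cannot be told apart here. The WT IMQ array of Rptn was not well above background. With that array at the lowest signal well above background, the difference of Rptn was at least 1.57. It was 0.57 with normexp and 0.85 in the deposited table, below the size limit of 1. Some genes, Tchh and Lce3e again among them, were called as a rise in 1 genotype and a fall in another, without a test of that difference itself. For Tchh (Card14-/- against Tlr7-/-) the responses lay 7.87 apart, for Tchhl1 (the same genotypes) 6.93, for Lce3e (the same genotypes) 2.91 and for Sprr1b (Tlr9-/- against Tlr7-/-) 2.42. On the second probe of Sprr1b the response in Tlr9-/- was 0.70, below the size limit of 1. The Tlr7-/- values rest on 1 untreated and 1 treated pool.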

How the results depend on the processing

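Leaving out a repeat array does not alter the responses of WT, Tlr7-/- and Tlr9-/-. Many values of the 70 called member differences thus could not change under that alternative, and none changed direction under any. Of 720 such values under alternatives 497 stayed called and 223 did not, 169 of these with an array or pair left out. The 7 calls of the average response became 13 with scaling to the 75th percentile, 4 with no filter on dim probes, 4 in the 3 genotypes on 1 slide and 13 (2 rises, 11 falls) over 12 arrays with genotype and slide blocks, and ranged from 3 to 9 with a pair left out. With 1 repeat array left out the calls ranged from 2 to 15 in Tlr7-/-, from 0 to 11 in Tlr9-/-, from 0 to 3 in Card14-/- and from 9 to 10 in WT, were 0 in Tlr7-/-Tlr9-/- and in the Card14-/- minus WT response, and ranged from 0 to 3 in treated Card14-/- against Tlr7-/-Tlr9-/-; those fits have 1 residual degree of freedom. With the replicate block the last comparison had 3 calls instead of 10 (Tchh, Tchhl1, Lce3a). The deviations of same-numbered repeats correlated at 0.058 over all genes. Whether such repeats share more than a number is not stated. Dependence on Tlr7 had 0 calls in every setting. The count of 18 members with both untreated Tlr7-deficient arrays highest, whose alternatives were chosen after seeing the data, was 17 to 18. Signal over background limits Crnn, Rptn and Sprr2f, the members with an array not well above it.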
